A study of Danio rerio with 1536 samples.

Results

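Cholinergic V2a interneurons (V2a INs) with little or no tubb5 and shox2 were examined in the spinal cord of 7-week-old zebrafish. GFP+ cells of the Tg(chx10:GFP) line were sorted singly into the wells of 2 plates. For each plate, 6 to 10 spinal cords were pooled before the sort. In this reporter line GFP labels V2a INs. All of these fish carried the reporter and the labels name no treatment. A second pair of plates was filled from the Tg(isl1a:GFP) line, whose reporter labels motoneurons (MNs) and other interneurons. These plates served here only as a reference for MN genes. Levels are given as CPM, the counts of a gene per 1000000 counts on all genes, either within 1 well or over the pooled wells of a class on a plate.

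The wells were selected on measured values. A well was taken as a mature cholinergic V2a IN if chata (ENSDARG00000015854) and slc18a3a (ENSDARG00000006356) together reached at least 500 CPM, tubb5 (ENSDARG00000037997), a tubulin gene of young neurons, lay below 100 CPM and shox2 (ENSDARG00000075713), a homeobox gene of other V2a INs, lay below 50 CPM. Of the 625 chx10:GFP wells that passed quality control, 242 met these limits, out of 1247 passing wells on all 4 plates. On plate 1 this was 122 of 300 wells, or 40.7% (95% exact binomial interval 35.1% to 46.5%), and on plate 2 it was 120 of 325 wells, or 36.9% (31.7% to 42.4%). The share did not differ between the plates beyond counting error (two-sided Fisher's exact test, p = 0.366). Of the remaining wells, 109 and 87 on plates 1 and 2 lay below all 3 limits and are called low-cholinergic wells. A further 45 and 40 wells had shox2 of at least 50 CPM with tubb5 below its limit (shox2 wells), and 24 and 78 wells had tubb5 of at least 100 CPM (tubb5-high wells), of which 1 and 6 also reached 50 CPM of shox2. The word mature stands for the limit on tubb5 alone. A list of 26 genes of immature neurons, tubb5 among them, summed to a median of 9251 and 10115 CPM per selected well. The sum was 8572 and 8841 CPM in low-cholinergic wells, 8914 and 8953 CPM in shox2 wells and 11721 and 15226 CPM in tubb5-high wells. Maturity was not tested further.

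V2a INs are excitatory neurons of the ventral spinal cord that project on the same side and drive MNs during swimming. They are best known as glutamatergic cells, which load vesicles with glutamate through vesicular glutamate transporters. Acetylcholine is made from choline and acetyl-CoA by choline acetyltransferase (chata), loaded into vesicles by the vesicular acetylcholine transporter (slc18a3a), and after breakdown in the synaptic cleft its choline is taken up again by the choline transporter SLC5A7.

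Both genes that chose the cells were present in most of them. The sum of chata and slc18a3a ranged from 573 to 9510.3 CPM on plate 1, with a median of 2665 CPM, and from 509 to 10411 CPM on plate 2, with a median of 3393 CPM. Both genes reached 50 CPM in 106 of 122 and 108 of 120 wells, so the sum seldom rested on 1 gene. No read of chata was found in 6 wells of plate 1 and 1 well of plate 2, and no read of slc18a3a in 7 and 4 wells. The limit did not fall in a gap of the distribution. Over both plates, the 5 wells just inside it had 509 to 611 CPM and the 5 low-cholinergic wells just outside it had 453 to 498 CPM. High levels were also met outside the class, in 8 of 24 and 50 of 78 tubb5-high wells but in 3 of 45 and 2 of 40 shox2 wells.

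The V2a part of the label rests on the sort, and was checked with genes that neither the sort nor the selection used. SOX14 (ENSDARG00000070929), a factor of the V2 lineage, had 394 and 282 pooled CPM and reached 50 CPM in 75 of 122 wells on plate 1 (61.5%) and 70 of 120 wells on plate 2 (58.3%). In low-cholinergic wells it had 497 and 315 CPM, a log2 difference of -0.26 ± 0.28 (SE of the edgeR fit, n = 2 plates) that was not called (edgeR, adjusted p = 1.00). In cholinergic wells of the isl1a:GFP plates, found with the same limits in 80 and 8 wells, SOX14 had 0.907 and 8.19 CPM. The LIM homeobox gene lhx3 (ENSDARG00000003803), shared by V2a INs and MNs, had 68.5 and 46.5 CPM and reached 50 CPM in 36.1% and 24.2% of cholinergic V2a wells, against 6.06 and 0.315 CPM in the isl1a:GFP wells. Its level in low-cholinergic wells was 35.7 and 30.4 CPM, and the difference was not called (adjusted p = 0.993). lhx4 (ENSDARG00000039458), a LIM homeobox gene of the same lineage, reached 50 CPM in 44 of 122 and 54 of 120 wells and in 26 of 80 and 4 of 8 cholinergic isl1a:GFP wells, so it did not set the lines apart, and its log2 difference from low-cholinergic wells of -0.69 ± 0.21 was not called (adjusted p = 0.430). Other factors of the V2 lineage were low. sox21b had 17.7 and 34.3 CPM, vsx1 4.15 and 5.76 CPM and foxn4 2.05 and 1.04 CPM. The second gene listed as SOX14 had 0.305 and 0.0697 CPM, and sox21a no read. The check thus rests on SOX14 and lhx3.

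Genes of MNs were at or near 0. The 9 MN genes looked up summed to 0 CPM in 107 of 122 wells on plate 1 (87.7%) and in 102 of 120 wells on plate 2 (85%), with a highest well of 598 and 751 CPM. In the cholinergic isl1a:GFP wells the same sum had a median of 1772 and 2762 CPM, and it was 0 in 1 of the 8 wells of plate 2. In these 8 wells, 16 genes of other spinal neurons summed to up to 75074 CPM, so this reference may not be MNs alone. The intermediate filament gene prph (ENSDARG00000028306), which marks neurons with axons in the periphery, had 16.0 and 6.45 pooled CPM in cholinergic V2a wells and 1385 and 2569 CPM in the isl1a:GFP wells. Islet1 (isl1a, ENSDARG00000004023), a LIM factor of MNs, had 0.0277 and 0.441 CPM against 217 and 113 CPM. No read of mnx2a (ENSDARG00000042106) or mnx2b (ENSDARG00000030350), homeobox genes of MNs, was found in any cholinergic V2a well. The isl1a:GFP wells had 3149 and 3799.9 CPM of chata and 1659 and 2305 CPM of slc18a3a, against 1234 and 2264 CPM and 1757 and 1682 CPM in cholinergic V2a wells. A second vesicular transporter gene, SLC18A3 (ENSDARG00000107527), had 67.7 and 103 CPM there but 0.0277 and 0 CPM in cholinergic V2a wells. The lines were sorted on separate plates, so a difference between lines and one between plates cannot be told apart.

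**Figure D1:**
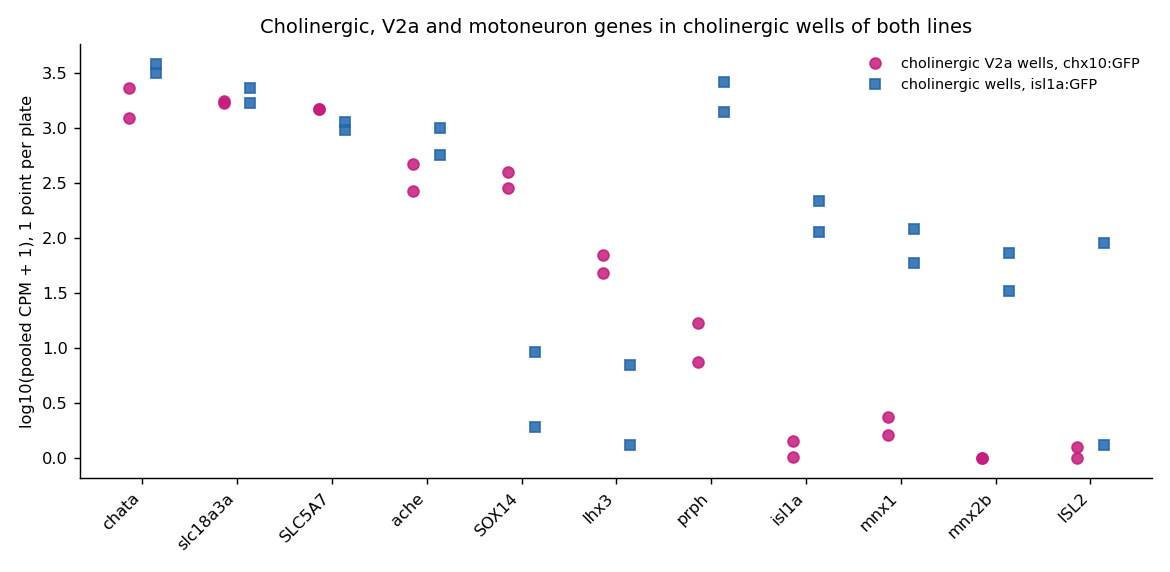
Pooled level of cholinergic, V2a and MN genes, as log10(CPM + 1), in cholinergic V2a wells of the chx10:GFP line (circles) and in cholinergic wells of the isl1a:GFP line (squares), with 1 point per plate. The genes chata, slc18a3a, SLC5A7 and ache are present in both lines, whereas SOX14 lies at 394 and 282 CPM in the circles against 0.907 and 8.19 CPM in the squares, and prph at 16.0 and 6.45 CPM against 1385 and 2569 CPM.

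Cholinergic V2a wells held less RNA, relative to spike-in RNA added to the wells, than low-cholinergic wells. The ratio of gene reads to spike-in reads had a median of 40.8 and 41.3, against 76.5 and 72.4 in low-cholinergic wells and 125 and 103 in shox2 wells. The median of cholinergic V2a wells was thus 0.534 and 0.570 times that of low-cholinergic wells. It was close to that of tubb5-high wells, at 40.8 and 31.2. Fewer genes were detected as well, with a median of 3110.5 and 3370 genes in cholinergic V2a wells and 4155 and 4352 genes in low-cholinergic wells. The wells of the classes overlapped widely in both measures. With wells thinned to 208925 reads, which left out the shallower 10 and 16 cholinergic V2a and 11 and 14 low-cholinergic wells, the medians were 2959 and 3084 against 3989 and 4286 genes. With at least 3000 genes required, the ratio to low-cholinergic wells was 0.653 and 0.689. With 2 plates, no exact test of a class difference can pass 0.05, and none was made. CPM is a share of the reads of a well, so it does not show this difference in the ratio. Molecules were not counted, and how much RNA of each cell reached its well was not tested. The study reports a large soma for V2a INs labeled through slc18a3a and a small one for those labeled through shox2.

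**Figure D2:**
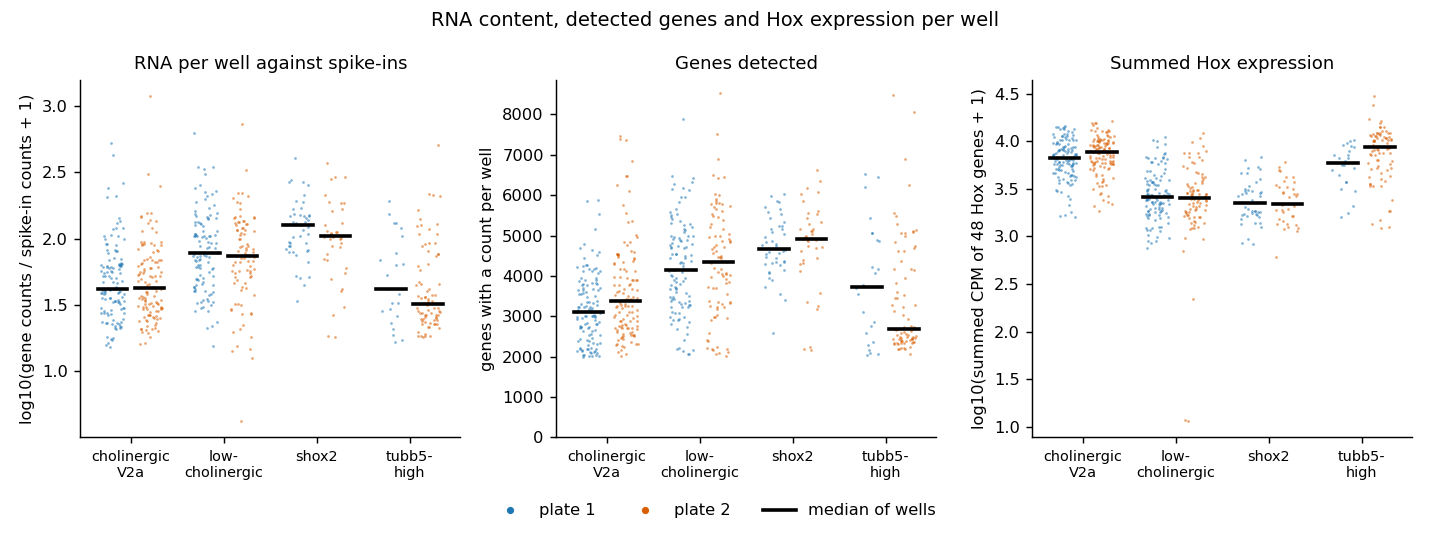
Each point is 1 passing chx10:GFP well, by class and plate, and black bars are medians of wells. The left panel shows log10 of the ratio of gene to spike-in reads plus 1, the middle panel the number of genes detected, and the right panel log10 of the summed CPM of 48 Hox genes plus 1. Cholinergic V2a wells have median ratios of 40.8 and 41.3, below the 76.5 and 72.4 of low-cholinergic wells, and median Hox sums of 6723 and 7785 CPM, above their 2597 and 2554 CPM.

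The genes that set cholinergic V2a wells apart were tested on counts summed per plate and class (edgeR quasi-likelihood, plate as a block, n = 2 plates). A gene was called at an adjusted p below 0.05 and a log2 difference of at least 0.25 in size. The 4 genes of the selection were left out of every count. Against all other passing chx10:GFP wells, 10 of 20948 genes were higher (0.0477%) and 21 were lower (0.100%). Against low-cholinergic wells, which differ from the class by the limit on chata and slc18a3a alone, 35 of 21003 genes were higher (0.167%) and 50 were lower (0.238%). The wells were grouped by 4 genes measured in the same libraries, so any gene that varies with those 4 differs between the classes, and the tests describe the classes only.

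Among genes of acetylcholine metabolism, the choline transporter followed the selecting genes. SLC5A7 (ENSDARG00000074860) had 1481 and 1464 CPM on plates 1 and 2, against 114 and 87.1 CPM in low-cholinergic wells. The log2 difference was 3.86 ± 0.24 (adjusted p = 1.2e-04), and it was 3.22 ± 0.17 against all other wells (adjusted p = 0.0148). It reached 50 CPM in 91.0% (84.4% to 95.4%) and 84.2% (76.4% to 90.2%) of cholinergic V2a wells, in 17.4% and 13.8% of low-cholinergic wells, and in 37.5% and 35.9% of tubb5-high wells. ACLY (ENSDARG00000099079), ATP citrate lyase, which makes cytosolic acetyl-CoA, had 1948 and 1451 CPM against 462 and 377 CPM in low-cholinergic wells, with a log2 difference of 2.00 ± 0.21 (adjusted p = 0.00341). ACLY was present in most wells of every class, and its difference was one of level more than of presence: 90.2% and 91.7% of cholinergic V2a wells had 50 CPM, against 66.1% and 62.1% of low-cholinergic wells. Acetylcholinesterase (ache, ENSDARG00000031796), which breaks acetylcholine down, did not follow, with 466 and 266 CPM against 408 and 385 CPM and a log2 difference of -0.19 ± 0.27 (adjusted p = 1.00). A second gene listed as SLC5A7 (ENSDARG00000102336) had 2.44 and 0.139 CPM. Of the 5 genes of this list that could be tested, 1 was called higher, beside 0.167% of all genes. The median log2 difference was -0.64, beside 0.01 over all genes.

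**Figure D3:**
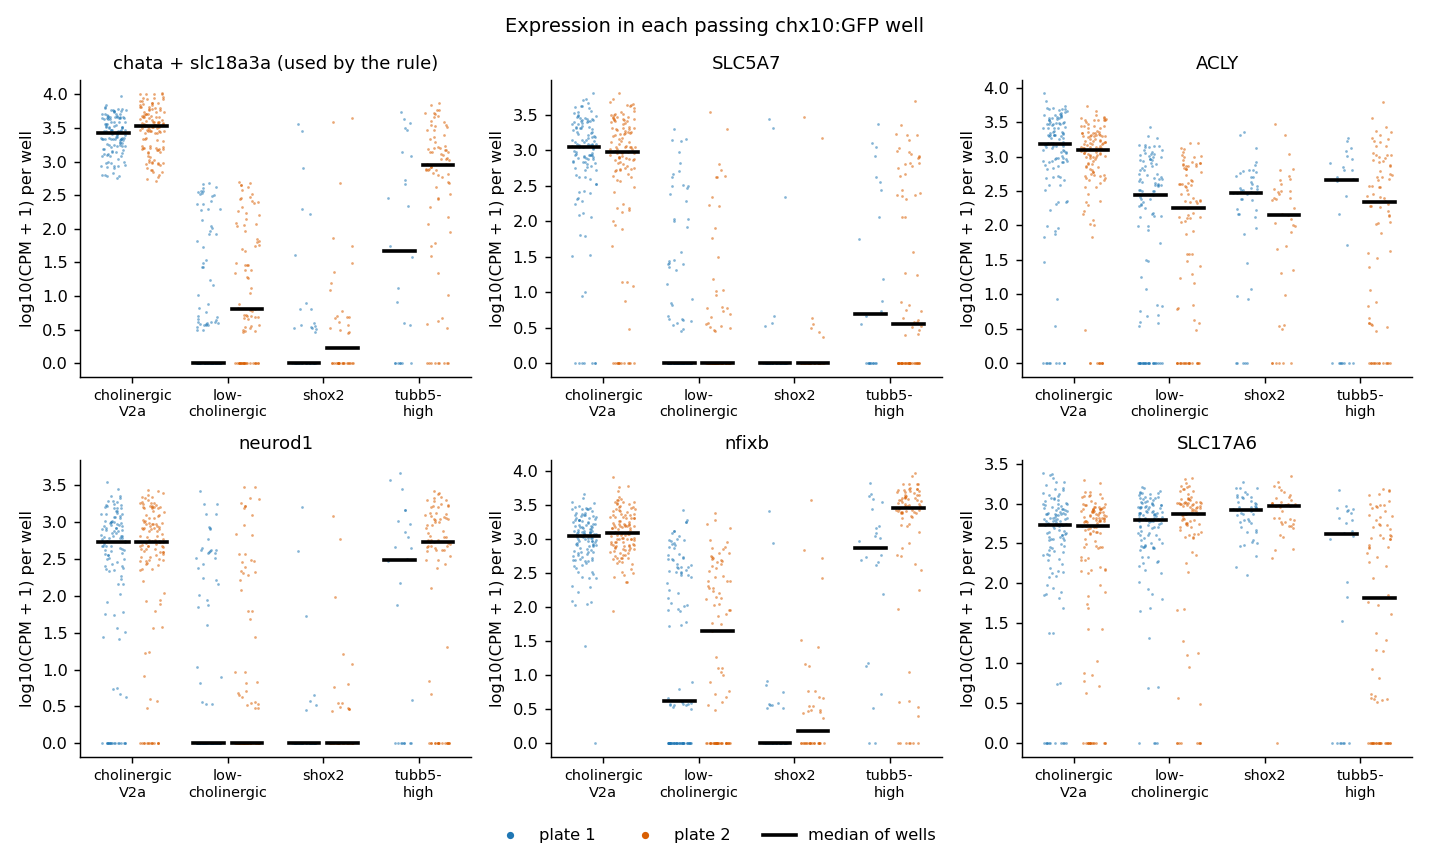
Level per well, as log10(CPM + 1), of chata and slc18a3a summed, SLC5A7, ACLY, neurod1, nfixb and SLC17A6 in the 4 classes of passing chx10:GFP wells, with plate 1 in blue, plate 2 in orange and medians as black bars. SLC5A7 and neurod1 have a median of 0 in low-cholinergic and shox2 wells, while SLC17A6 is present in most cholinergic V2a, low-cholinergic and shox2 wells.

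The vesicular glutamate transporter was found in most cells of the class. The SLC17A6 gene with the higher level (ENSDARG00000041150), which loads glutamate into vesicles, had 627 and 569 CPM against 652 and 739 CPM in low-cholinergic wells. The log2 difference was -0.23 ± 0.20 (adjusted p = 1.00). It reached 50 CPM in 86.9% (79.6% to 92.3%) and 79.2% (70.8% to 86.0%) of cholinergic V2a wells and in 91.7% and 81.6% of low-cholinergic wells. The second copy (ENSDARG00000001127) had 111 and 103 CPM against 109 and 96.0 CPM. The sum of 9 glutamatergic genes had a median of 753 and 639 CPM per cholinergic V2a well. In low-cholinergic wells it was 780.3 and 941 CPM, and in shox2 wells it was higher, at 1209 and 1112 CPM. Genes of GABA and glycine synthesis and transport were low. Their sum had a median of 3.70 and 42.7 CPM per well, against 93.1 and 149 CPM in low-cholinergic wells, and was 0 in 57 of 122 and 34 of 120 cholinergic V2a wells.

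Among factors of the NEUROD, EBF, NFI, NEUROG and NHLH families, 4 of 16 genes were called higher than in low-cholinergic wells and none lower, beside 0.167% and 0.238% of all genes (edgeR). At an unadjusted p below 0.05, 10 were higher and 0 lower, beside 1311 of all 21003 genes in either direction. DESeq2 called 8 higher and 0 lower, beside 290 and 368 of 29742 genes. The median log2 difference by edgeR was 1.61, beside 0.01 over all genes, and 14 of the 16 lay above 0. The proneural factor gene neurod1 (ENSDARG00000019566), which drives neuronal differentiation, had 677 and 758 CPM against 141 and 266 CPM, a log2 difference of 1.84 ± 0.26 (adjusted p = 0.0188). It was named as a marker of these cells with results on them known. Against all other wells, at 196 and 389 CPM, neurod1 was not called (adjusted p = 0.131). It reached 50 CPM in 78.7% (70.4% to 85.6%) and 81.7% (73.6% to 88.1%) of cholinergic V2a wells and in 25.7% and 29.9% of low-cholinergic wells. The call of neurod1 against low-cholinergic wells was lost with at least 3000 genes per well (adjusted p = 0.0521), without the plate block (adjusted p = 0.0504) and in thinned wells (adjusted p = 0.0509).

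nfixb was found in nearly every cell of the class. nfixb (ENSDARG00000061836), a nuclear factor I gene of late neuronal differentiation, reached 50 CPM in 120 of 122 and 120 of 120 wells, against 46.8% and 49.4% of low-cholinergic wells. Its pooled level was 1267 and 1652 CPM against 288 and 243 CPM, and the log2 difference was 2.42 ± 0.31 (adjusted p = 0.00974). With at least 3000 genes required this call was lost, at a log2 difference of 2.02 and an adjusted p of 0.0795. Its copy nfixa (ENSDARG00000043226) had 144 and 212 CPM against 15.0 and 20.8 CPM, a log2 difference of 3.29 ± 0.33 (adjusted p = 0.00331), and was present in 37.7% and 54.2% of wells. Without wells rich in glial transcripts, described below, the adjusted p of nfixa was 0.197. ebf2 (ENSDARG00000042525) was called with 21.4 and 35.8 CPM against 0.0840 and 0.584 CPM, but it reached 50 CPM in only 3.28% and 5.00% of cholinergic V2a wells. The call of ebf2 was lost in 5 of 14 alternative settings. zeb2a (ENSDARG00000062338), a zinc-finger homeobox gene, had 455 and 426 CPM against 52.1 and 28.1 CPM and just missed the threshold (adjusted p = 0.0573). The 2 NEUROD6 genes (ENSDARG00000040008 and ENSDARG00000020794) had 506 and 527 CPM against 156 and 144 CPM and 260.4 and 265 CPM against 64.1 and 89.0 CPM, and neither was called.

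These factors were not particular to the selected wells. In tubb5-high wells, nfixb had 1443 and 2957 CPM, nfixa 172 and 441 CPM, neurod1 824 and 726 CPM and zeb2a 121 and 569 CPM. None of the 4 differed from cholinergic V2a wells past the threshold. Of the 16 genes, 15 lay below 0 in that comparison, with a median log2 difference of -0.74, beside 0.16 over all genes. The related proneural gene neurod4 (ENSDARG00000003469) had 109 and 206 CPM in cholinergic V2a wells and 326 and 454 CPM in tubb5-high wells, and reached 50 CPM in 18.9% and 28.3% of the former.

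Hox genes give position along the body axis. The 48 Hox genes summed to a median of 6723 and 7785 CPM per cholinergic V2a well, against 2597 and 2554 CPM in low-cholinergic wells and 2246 and 2203 CPM in shox2 wells. Per well, a median of 15 and 17 Hox genes reached 50 CPM, against 10 in low-cholinergic wells on both plates. Of the 48, 42 lay above 0 and 6 below, with a median log2 difference of 1.00, which ranged from 0.91 to 1.08 over the alternative settings. The 5 genes called higher were hoxa10b, hoxc3a, hoxb3a, hoxc10a and hoxc9a, and none was called lower, beside 0.167% and 0.238% of all genes. hoxa10b (ENSDARG00000031337) had 664 and 854 CPM against 139 and 114 CPM, a log2 difference of 2.55 ± 0.38 (adjusted p = 0.0230). hoxc3a (ENSDARG00000070339) had 714 and 578 CPM against 154 and 116 CPM, a log2 difference of 2.25 ± 0.31 (adjusted p = 0.0171).

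The size of the difference varied with the paralog group. In groups 9 to 11, all 14 genes lay above 0 on both plates, with a median of 1.76. In groups 1 to 8, 23 of 25 genes lay above 0, with a median of 0.86. In groups 12 and 13, 5 of 9 genes lay above 0, with a median of 0.22, and none was called (edgeR). hoxb13a (ENSDARG00000056015) went the other way, with 13 and 0.209 CPM against 108 and 95 CPM, and was not called (log2 difference of -4.21 ± 1.56, adjusted p = 0.609). It reached 50 CPM in 7.34% and 5.75% of low-cholinergic wells, so that its level there rested on few wells. Of the 5 calls, hoxc9a was lost with at least 3000 genes required, hoxb3a without the plate block, hoxb3a and hoxc10a in thinned wells, and hoxc10a with the limit on chata and slc18a3a at 250 CPM. Tubb5-high wells had Hox sums of 5879.8 and 8605 CPM. Against them 1 Hox gene, hoxb8a, was called lower and none higher, beside 0.0905% and 0.0333% of all genes. Whether the classes come from the same levels of the cord was not tested, since cords were pooled before the sort.

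**Figure D4:**
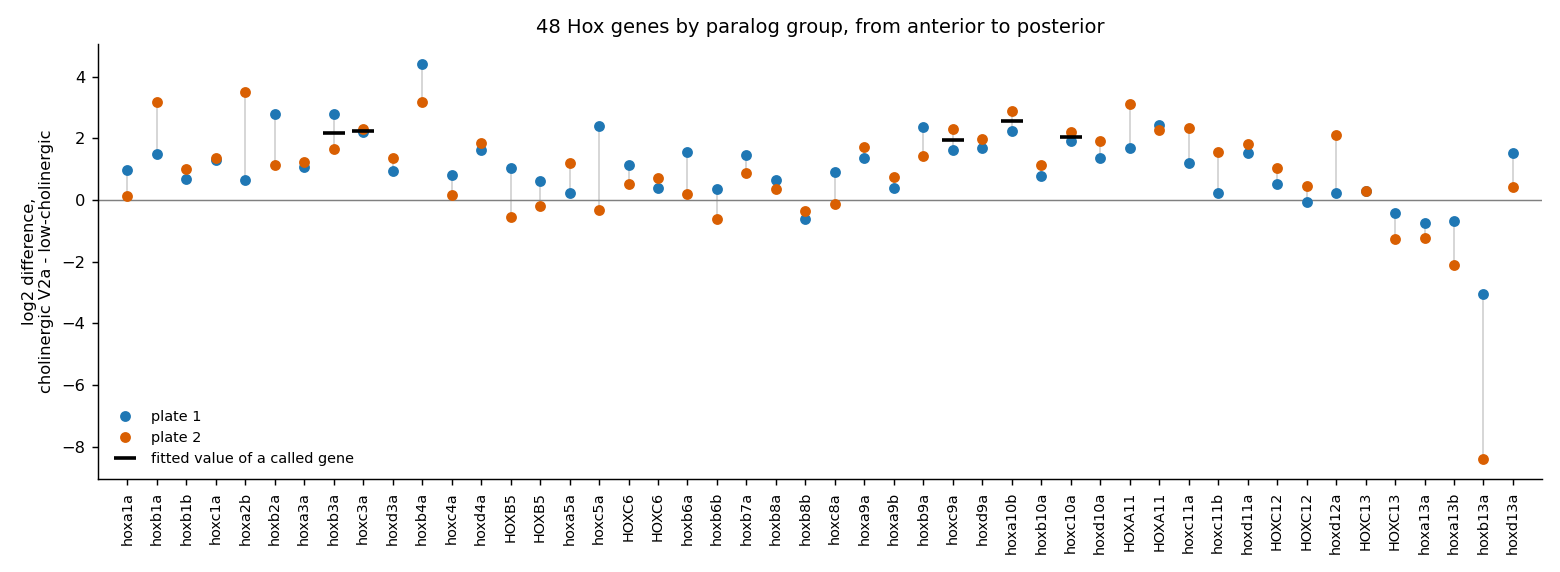
Log2 difference of each of 48 Hox genes between cholinergic V2a and low-cholinergic wells, on plate 1 (blue) and plate 2 (orange), ordered by paralog group from anterior to posterior, with a black bar at the fitted value of the 5 called genes. All 14 genes of groups 9 to 11 lie above 0 on both plates, whereas 4 of the 9 genes of groups 12 and 13 have a fitted value below 0.

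Genes of a list of other homeobox families and the PRDM family were mostly lower where they were called. Of 82 genes of the LIM, POU, PAX, NKX, IRX, MEIS, ONECUT, ZFHX and PRDM families, 1 was called higher and 8 lower than in low-cholinergic wells. The median log2 difference was 0.11 and ranged from -0.29 to 0.13 over the alternative settings. By plate it was -0.18 and -0.06. Over all genes, 0.167% were called higher and 0.238% lower. The zinc-finger homeobox genes zfhx4, zfhx3b and zfhx3a fell by 6.00, 5.31 and 3.70 on the log2 scale. For zfhx4 (ENSDARG00000075542) the levels were 2.69 and 8.22 CPM against 360.2 and 270.1 CPM (adjusted p = 8.1e-04), and 1.64% and 6.67% of cholinergic V2a wells reached 50 CPM, against 40.4% and 34.5%. meis2b (ENSDARG00000077840), a TALE homeobox gene, had 5.12 and 1.14 CPM against 106 and 68.3 CPM (log2 difference of -5.06 ± 0.53, adjusted p = 0.00346), and meis2a and meis3 fell by 2.42 and 2.52 on the log2 scale. prdm1a (ENSDARG00000002445), a transcriptional repressor gene, had 0.249 and 0.952 CPM against 231 and 99.6 CPM (adjusted p = 0.00248). onecut1 (ENSDARG00000007982) reached 50 CPM in 0 of 122 and 0 of 120 cholinergic V2a wells, which allows a share of up to 2.98% and 3.03%, against 28.4% and 14.9% of low-cholinergic wells. pou3f3b (ENSDARG00000095896), a POU factor gene, was the gene of this list called higher, with 153 and 168 CPM against 34.8 and 45.1 CPM. Its call was lost in 8 of 14 alternative settings. The homeobox gene gbx2, outside this list, was also called higher and is given further below.

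The nuclear receptor gene nr5a2 (ENSDARG00000100940) was almost absent from the class. On plates 1 and 2, nr5a2 had 1.02 and 0.325 CPM in cholinergic V2a wells, against 269 and 179 CPM in all other wells and 316 and 383 CPM in shox2 wells. The log2 difference of nr5a2 from all other wells was -8.50 ± 0.38 (adjusted p = 0.00939), and it was -8.46 ± 0.53 from low-cholinergic wells (adjusted p = 1.2e-04). It reached 50 CPM in 1 of 122 and 0 of 120 cholinergic V2a wells, against 32.1% and 19.5% of low-cholinergic wells and 53.3% and 70.0% of shox2 wells. On both plates its highest wells were outside the class, at 2542 and 2464 CPM, against 72.5 and 24 CPM within it.

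Of 41 genes of calcium-binding proteins, 1 was called higher and none lower, beside 0.167% and 0.238% of all genes. The median log2 difference was -0.01. calb2a (ENSDARG00000041062), the calcium buffer calretinin, had 928 and 845 CPM against 103 and 113 CPM in low-cholinergic wells, with a log2 difference of 3.0 ± 0.32 (adjusted p = 0.00388). Shox2 wells had 758 and 309 CPM of calb2a, and the difference from them was not called (adjusted p = 0.344). IGSF21 (ENSDARG00000056084), a synaptic adhesion protein in mice, had 255 and 209 CPM against 18.8 and 8.28 CPM, a log2 difference of 4.18 ± 0.64 (adjusted p = 0.0278). BRINP3 (ENSDARG00000061051) had 244 and 227 CPM against 34.4 and 13.6 CPM, a log2 difference of 3.46 ± 0.40 (adjusted p = 0.00578), and both genes were also higher than in all other wells. Both calls against low-cholinergic wells were lost with at least 3000 genes required, at adjusted p of 0.214 and 0.0615. That of IGSF21 was also lost in thinned wells (adjusted p = 0.0688).

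ARHGAP42 (ENSDARG00000056619), a GTPase-activating protein, had 150.2 and 102 CPM against 2.60 and 7.27 CPM (adjusted p = 0.0302). The call of ARHGAP42 was lost in thinned wells (adjusted p = 0.247) and with limits of 1000 and 250 CPM on chata and slc18a3a (adjusted p = 0.0643 and 0.0522). The neurotensin receptor gene ntsr1 (ENSDARG00000077577) had 130.1 and 245 CPM against 13.6 and 12.1 CPM (adjusted p = 0.0247), and lost its call with at least 3000 genes (adjusted p = 0.0642) and with a limit of 1000 CPM (adjusted p = 0.0821). The globin gene cygb2 (ENSDARG00000070148) had 239 and 262 CPM against 41.4 and 47.5 CPM (adjusted p = 0.0176). NELL2 (ENSDARG00000062797), a secreted glycoprotein that repels axons in mice, had 1545 and 1308 CPM against 617 and 555 CPM (log2 difference of 1.27 ± 0.17, adjusted p = 0.0112). mcama (ENSDARG00000089643), a cell adhesion gene, had 83.7 and 126 CPM against 9.07 and 14.3 CPM, and lost its call without glia-rich wells (adjusted p = 0.557), without the plate block (adjusted p = 0.138) and with a limit of 1000 CPM (adjusted p = 0.0643). Against all other wells, chrna8 (ENSDARG00000087224), a nicotinic acetylcholine receptor subunit, was called with 231 and 169 CPM against 46.5 and 36.4 CPM (log2 difference of 2.26 ± 0.20, adjusted p = 0.0403). Of 30 acetylcholine receptor genes in that comparison, 1 was called higher and 0 lower, beside 0.0477% and 0.100% of all genes. Of the 30, 12 lay above 0 and 18 below, with a median log2 difference of -0.64, beside -0.06 over all genes. PTGER1 (ENSDARG00000078602), a prostaglandin receptor, had 121 and 72.0 CPM against 13.2 and 4.94 CPM (adjusted p = 0.0403) and was present in 28.7% and 18.3% of wells. One of the HOXA11 genes (ENSDARG00000007009) had 224 and 386 CPM against 63.8 and 113 CPM (adjusted p = 0.0492). Without the plate block, chrna8, PTGER1, HOXA11 and NELL2 lost the call against all other wells. Of genes below the threshold in that comparison, fxyd6 (ENSDARG00000100971), a modulator of the sodium pump, had 289 and 222 CPM against 79.5 and 65.1 CPM (adjusted p = 0.0520), and brinp3a.1 (ENSDARG00000076351) had 140.0 and 275 CPM against 33.6 and 44.3 CPM (adjusted p = 0.0520).

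**Figure D5:**
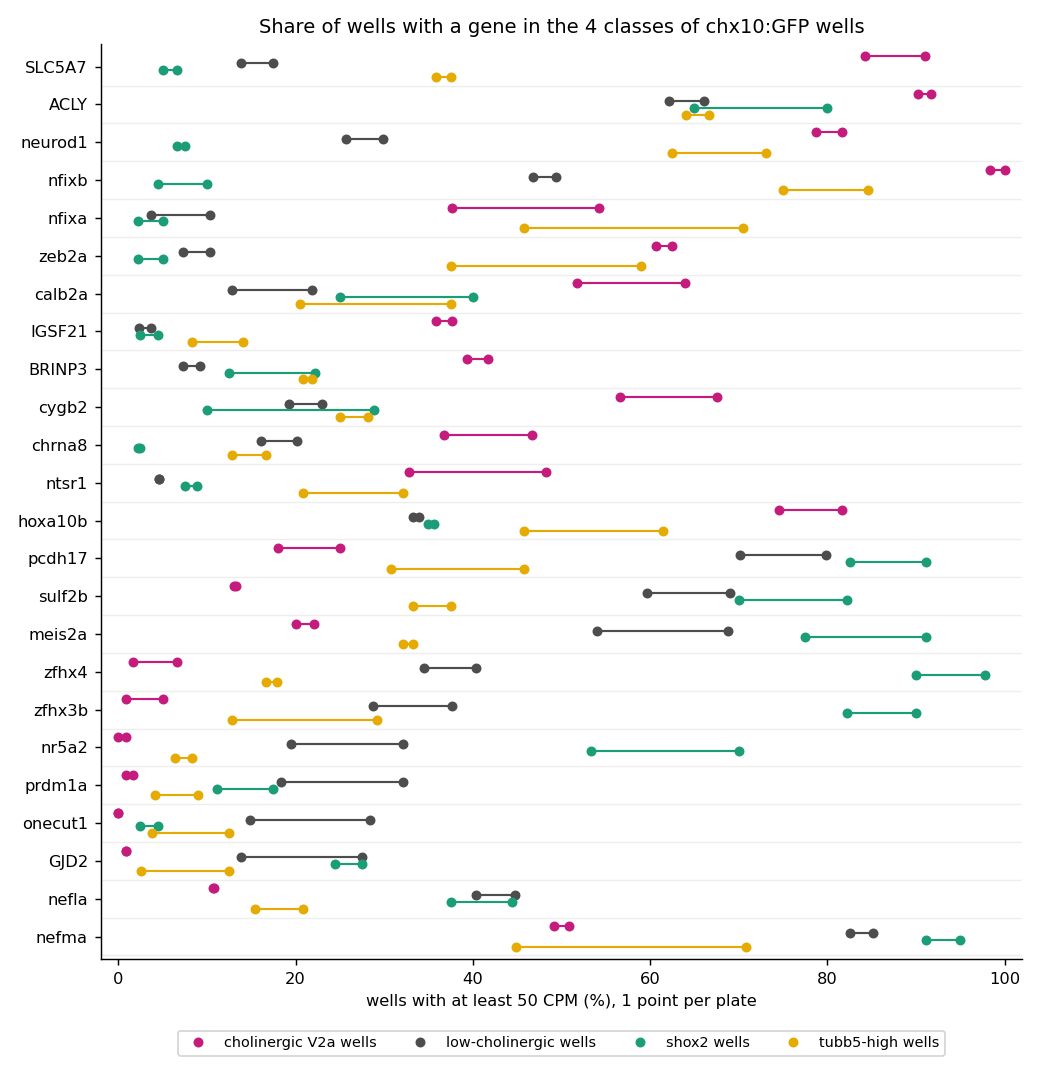
Share of wells with at least 50 CPM of each gene in the 4 classes of passing chx10:GFP wells, with 1 point per plate joined by a line. For genes at the top the cholinergic V2a wells (magenta) lie to the right, as with SLC5A7 at 91.0% and 84.2%, and for genes from pcdh17 downward they lie to the left, as with onecut1 at 0 on both plates.

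Further genes called lower were found one by one. Of these, pcdh17 belongs to the list of cadherins given further below, and GJD2 is a connexin gene. Of 23 connexin genes, 1 was called lower and none higher, beside 0.238% and 0.167% of all genes. Their median log2 difference was -0.65, but it ranged from -0.86 to 0.07 over the alternative settings. By plate the median was -0.18 and -0.05. pcdh17 (ENSDARG00000027041), a protocadherin, had 64.6 and 71.9 CPM against 842 and 628 CPM in low-cholinergic wells (log2 difference of -3.42 ± 0.27, adjusted p = 6.2e-04). It reached 50 CPM in 18% and 25% of cholinergic V2a wells and in 79.8% and 70.1% of low-cholinergic wells. The dopamine receptor gene drd3 (ENSDARG00000032131) had 0.582 and 3.55 CPM against 60.3 and 61.9 CPM (adjusted p = 0.0442), and its call was lost without the plate block (adjusted p = 0.388) and with at least 3000 genes (adjusted p = 0.0904). DRD2 (ENSDARG00000056926), a further dopamine receptor, had 6.40 and 9.15 CPM against 108 and 68.4 CPM (adjusted p = 0.00974, and 0.0667 with a limit of 1000 CPM), and the serotonin receptor gene htr1aa (ENSDARG00000093745) had 1.27 and 0.371 CPM against 64.8 and 37.3 CPM (adjusted p = 0.00639, and 0.121 with limma). GJD2 (ENSDARG00000070781), a connexin of electrical synapses, had 0.914 and 0.673 CPM against 110.1 and 47.8 CPM (adjusted p = 0.00656). TAFA5 (ENSDARG00000069160), a secreted chemokine-like protein, had 3.38 and 3.65 CPM against 96.7 and 80.6 CPM (adjusted p = 0.00197).

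Of 17 genes of neurofilaments and the axonal cytoskeleton, 2 were called lower and none higher, beside 0.238% and 0.167% of all genes. The median log2 difference was -0.31. nefla (ENSDARG00000057568), a light neurofilament gene, had 25.2 and 29.8 CPM against 119 and 137 CPM (log2 difference of -2.23 ± 0.28, adjusted p = 0.00916, and 0.0784 with a limit of 250 CPM). INA (ENSDARG00000053248), internexin, had 17 and 11 CPM against 142 and 111 CPM (adjusted p = 0.00341). nefma (ENSDARG00000021351), a medium neurofilament gene, had 248 and 310.2 CPM against 725 and 1034 CPM and just missed the threshold (adjusted p = 0.0612). Further genes called lower than in all other wells were B3GLCT (ENSDARG00000073917), a glucosyltransferase, with 7.51 and 4.36 CPM against 94.1 and 86.3 CPM, and rpz5 (ENSDARG00000075718) with 7.17 and 6.20 CPM against 75.8 and 70.1 CPM (adjusted p = 0.0403). The call of rpz5 was lost with at least 3000 genes (adjusted p = 0.306).

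Genes of oxidative metabolism leaned to the lower side against low-cholinergic wells. Of 93 nuclear genes of the respiratory chain, 92 lay below 0 and 1 above, with a median log2 difference of -0.50 that ranged from -0.56 to -0.42 over the alternative settings. One was called lower, beside 0.238% of all genes. This gene, ndufa4b (ENSDARG00000056108), had 317 and 329 CPM against 922 and 926 CPM (adjusted p = 0.0336). Its call was lost in 3 of 14 alternative settings, at adjusted p of up to 0.0553. All 13 genes coded by the mitochondrial genome lay below 0, with a median of -0.33, and none was called (edgeR, with 6 lower at an unadjusted p below 0.05, and 0 by DESeq2). Over all genes, 1311 of 21003 had such a p in either direction, and DESeq2 called 368 of 29742 lower. Cytosolic ribosomal protein genes had a median of 0.13 over 78 genes. Lactate dehydrogenase ldha (ENSDARG00000101251) had 242 and 220.0 CPM against 828 and 823 CPM (log2 difference of -1.85 ± 0.26, adjusted p = 0.0171). RNA content and genes detected moved with these levels, and their part was not tested. The lower side was not seen against tubb5-high wells. There, 75 of the 93 nuclear genes lay above 0, with a median of 0.30, beside 0.16 over all genes. Of the 13 mitochondrial genes, 11 lay above 0, with a median of 0.08, and no gene of either list was called.

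Genes that the study names for its fast, intermediate and slow circuit modules were found on both sides. The study named them from these same cells among others, so they are no independent evidence. It names its fast V2a INs by chata and slc18a3a, which chose the cells and were left out of these counts. The lists also draw on markers that the study reports in MNs, so their medians do not place the cells in a module. Of 8 genes named for the fast module, neurod1 was called higher than in low-cholinergic wells, and the median log2 difference was -1.20. Of 9 genes named for the slow and intermediate modules, zfhx3b and oxr1b were called lower, with a median of -0.81. Of 7 further genes that the study names for a module without saying which, nfixa, nfixb and c1qtnf4 were called higher and pcdh17 lower, with a median of 1.36. Over all genes, 0.167% were called higher and 0.238% lower. The call of c1qtnf4 was lost in 3 of 14 alternative settings, at adjusted p of up to 0.0695. oxr1b (ENSDARG00000063310), an oxidation resistance gene, had 189 and 89.3 CPM against 647 and 472 CPM (adjusted p = 0.0059, and 0.142 without the plate block). The nuclear receptor gene esrrga (ENSDARG00000004861) had 233 and 177 CPM against 211 and 299 CPM, and the NMDA receptor subunit GRIN1 (ENSDARG00000025728) had 1431 and 1520.0 CPM against 644 and 505 CPM. Neither was called, at adjusted p of 1.00 and 0.0826.

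A few low-cholinergic wells carried many glial transcripts, and the glial genes among the calls rested on them. Wells were counted as glia-rich if genes of astroglia or microglia summed to at least 2000 CPM or genes of oligodendrocytes to at least 20000 CPM. This held for 5 and 8 cholinergic V2a wells and for 2 and 15 low-cholinergic wells. The sum of 10 astroglial genes had a median of 171 and 264 CPM in cholinergic V2a wells and of 324 and 296 CPM in low-cholinergic wells, with a highest well of 3179 and 22134 against 46481 and 81638 CPM. Against low-cholinergic wells, gfap (ENSDARG00000025301), SLC1A2 (ENSDARG00000102453) and stm (ENSDARG00000035694) were called lower at log2 differences of -2.75, -2.33 and -4.62. Without glia-rich wells the same values were 2.62, 0.60 and 0.97, none past the threshold, so the direction of these 3 differences depended on those wells. The oligodendrocyte genes had a median sum of 1789 and 2965 CPM in cholinergic V2a wells, against 1203 and 1779 CPM in low-cholinergic wells. The myelin gene mbpa (ENSDARG00000036186) reached 50 CPM in 112 of 122 and 116 of 120 cholinergic V2a wells, at 2435 and 4097 pooled CPM. Where these transcripts came from was not tested.

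Cholinergic V2a wells were also compared with the other named classes. Against shox2 wells, 180 of 21003 genes were called higher (0.857%) and 136 lower (0.648%). These included 14 of 48 Hox genes, all higher, and 10 of 16 genes of the NEUROD, EBF and NFI list, all higher. For nfixb the levels were 1267 and 1652 CPM against 77.1 and 64.0 CPM, a log2 difference of 4.30 (adjusted p = 2.3e-04). Against tubb5-high wells, 7 genes were called higher (0.0333%) and 19 lower (0.0905%). The higher genes included SLC5A7, ACLY and NELL2, with log2 differences of 2.25, 1.49 and 1.38. The lower genes included nr5a2, zfhx4 and prdm1a, and tuba1a (ENSDARG00000001889), an alpha-tubulin gene of growing axons, which had 96.5 and 168 CPM against 555 and 549 CPM (adjusted p = 0.0161). The 2 comparisons share the cholinergic V2a wells and 1 estimate of the spread, and the classes differ in size, so the difference between the numbers of calls was not tested.

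Across wells, of the genes with a symbol, SLC5A7 followed the level of chata and slc18a3a most closely. Over the 231 and 207 cholinergic V2a and low-cholinergic wells, the Spearman correlation with SLC5A7 was 0.73 and 0.75. In all, 9418 genes were compared, and only those with a symbol were ranked. SLC5A7 was the highest of these. The next were nfixb with 0.73 and 0.70, ACLY with 0.59 and 0.62, zeb2a with 0.57 and 0.49 and NELL2 with 0.52 and 0.51. At the other end, pcdh17 had -0.68 and -0.59 and sulf2b (ENSDARG00000013838), a heparan sulfate endosulfatase, -0.57 and -0.62. Wells of a plate share a pool, and since the span of levels was fixed by the classes, these values are a description. Within cholinergic V2a wells alone, the correlation was 0.10 and 0.46 for SLC5A7, 0.32 and 0.43 for ACLY and 0.32 and 0.04 for nfixb. Within the class, these values differed more between the plates than across both classes.

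The cholinergic V2a wells also varied among themselves. calb2a reached 50 CPM in 63.9% (54.7% to 72.4%) of them on plate 1 and 51.7% (42.4% to 60.9%) on plate 2, and its highest wells had 5843 and 5249.7 CPM. The somatostatin-family gene sst6 (ENSDARG00000093804) reached it in 68.9% (59.8% to 76.9%) and 58.3% (49.0% to 67.3%). Both genes tended to be found together, since sst6 was present in 76.9% and 74.2% of wells with calb2a and in 54.5% and 41.4% of wells without. The depth of wells with and without calb2a was similar, at a median of 296762 against 292082 reads on plate 1 and 363234 against 351794 reads on plate 2. The share with calb2a was 69.8% and 53.1% in wells with neurod1, against 42.3% and 45.5% in wells without. For hoxa10b it was 75.6% and 87.1% in wells with calb2a, against 72.7% and 75.9%. Some of these gaps were small and none was tested. On plate 2, calb2a was in 52 of 98 wells with neurod1 and 10 of 22 without. On plate 1, hoxa10b was in 59 of 78 wells with calb2a and 32 of 44 without. The direction for hoxa10b and neurod1 differed between plates, with hoxa10b in 77.1% and 79.6% of wells with neurod1 and in 65.4% and 90.9% of wells without. Cells of a plate share 1 pool, so all intervals on shares cover counting error only. Reads carry no molecular identifiers.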

How the data were processed

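Smart-seq2 libraries of single sorted cells were analyzed from a deposited table of raw counts by gene and well. The authors obtained these unnormalized counts from reads mapped uniquely to GRCz11 with STAR (2.5.3a). The counting program is not given in the sources used here. Of all counts, 3.31% lay on spike-ins and 0.530% on GFP, and both stayed out of CPM and library sizes. Each plate had 384 wells. Wells with 2000 to 9000 of 32519 genes detected and at most 30% spike-in counts were kept. The 300 and 325 kept chx10:GFP wells held 12342 to 591131 and 10850 to 753926 gene counts, with medians of 324159 and 367903. No doublet caller was run.

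Counts were summed per plate and class and tested with edgeR (4.0.16, R 4.3.3; TMM, quasi-likelihood, Benjamini-Hochberg) with plate as a block. All classes of a plate came from the same pooled cords. Deviations of 2 classes of the same plate from their means over plates correlated at 0.0212 to 0.0786 across genes. The block takes out the shift between the 2 pools. P-values rest on how far class differences varied between the pools, with the spread moderated over genes. In the comparison with all other wells, this spread includes a change in the mix of classes. There, tubb5-high wells made up 24 of 178 wells on plate 1 and 78 of 205 wells on plate 2. All 4 classes were fitted together (3 residual degrees of freedom) except in the comparison with all other wells (1 residual degree of freedom). Each value after ± is a standard error of the fitted log2 difference, derived from its quasi-likelihood F statistic. It is not the spread of the 2 plate values of that gene. limma (3.58.1, on log2 values plus 1) and DESeq2 (1.42.0) were alternatives.

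Named genes were the selecting genes, neurod1, genes of the lists and the 5 most correlated genes with a symbol. Others came from called genes with a symbol, equal sign on both plates and at least 50 CPM in the higher class. Of these, the 12 highest and 8 lowest against other wells and the 8 and 6 against low-cholinergic wells were taken. Places left were filled up by smallest p, as values only. Further called genes were named after their values were seen. Members and lists were chosen with earlier results of these data known. Symbols came from a later name table matched by Ensembl identifier (29200 of 32519 genes). One gene is not reported here, nor an alternative that needed it. Genes in capitals are listed there under the human symbol, so which zebrafish copy they are is not given, and chata is the only gene listed as CHAT. Reads of near-identical copies may be lost, since only uniquely mapped reads were kept.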

Additional observations from a re-analysis of the deposited data

How the results depend on the processing

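The numbers of called genes moved with the settings, most of all in the comparison with all other wells, whose spread rests on 1 residual degree of freedom. There 31 genes were called, against 1225 with DESeq2, 1391 with limma, 61 with RLE factors, 410 with no filter on low counts, 220 with at least 3000 genes, 252 and 114 with limits of 1000 and 250 CPM on chata and slc18a3a, 110 with shox2 below 20 CPM, 116 with tubb5 below 50 CPM, 169 in thinned wells, 371 without tubb5-high wells and, chosen after seeing the data, 153 without glia-rich wells. At least 30 of the 31 genes were called again in each of these, all in the same direction. Against low-cholinergic wells 85 genes were called, against 327 with 2 classes in the fit, 658 with DESeq2, 377 with limma and 378 with no filter on low counts, and from 74 to 97 in the other settings run with the block. Of the 85, from 62 to 85 were called again in the settings with the block. The causes were not tested.

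The replicate block decided more of the calls against all other wells than any other setting. With no replicate block, 22 genes were called against all other wells (20 of the 31), 60 against low-cholinergic wells (all among the 85), 245 against shox2 wells and 10 against tubb5-high wells, in place of 26.

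Against low-cholinergic wells, 81 of the 85 called genes kept their direction without glia-rich wells. The other 4 were gfap, at 2.62, SLC1A2, at 0.60, stm, at 0.97, and ATP1B4 (ENSDARG00000053262). With limma SLC1A2 was at 0.04. With at least 3000 genes, the share of cholinergic V2a wells on plate 1 was 31.7% and the RNA content against low-cholinergic wells was 0.653 and 0.689. With n = 2 plates and a biological coefficient of variation of 0.838, a gene that was not called is not shown to be equal.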

Other observations

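Further lists held single calls against low-cholinergic wells, where 0.238% of all genes were called lower and 0.167% higher, so that such counts are no result about the lists. Of 73 cadherins and protocadherins, 2 were called lower and none higher: pcdh17 and PCDH10 (ENSDARG00000102824), which had 36.6 and 24.7 CPM in cholinergic V2a wells against 164 and 176 CPM (adjusted p = 0.0302, and 0.0562 with a limit of 250 CPM on chata and slc18a3a). Of 96 axon guidance genes, 1 was called lower, the Eph receptor gene epha6 (ENSDARG00000022971), with 18.8 and 30.2 CPM against 108 and 88.0 CPM (adjusted p = 0.0497), a call lost in 4 of 14 alternative settings, at adjusted p of up to 0.120. Of 58 genes of the release machinery, 1 was called lower, syt13 (ENSDARG00000012306), an atypical synaptotagmin, with 1.16 and 1.32 CPM against 48.3 and 41.0 CPM (adjusted p = 0.0112). STMN2 (ENSDARG00000070537), a microtubule regulator of growing axons, had 259 and 226 CPM against 599 and 553 CPM (adjusted p = 0.0272). The Golgi sulfotransferase gene chst8 (ENSDARG00000074560) had 0.831 and 0.325 CPM against 86.8 and 48 CPM (adjusted p = 6.9e-04), and OLFM3 (ENSDARG00000071493), a secreted olfactomedin, had 56.4 and 47.3 CPM against 281 and 206 CPM (adjusted p = 0.00535).

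On the higher side stood the metabotropic glutamate receptor GRM8 (ENSDARG00000076508), with 255 and 318 CPM against 29.7 and 52.7 CPM (log2 difference of 2.83 ± 0.37, adjusted p = 0.0106), present in 50% and 56.7% of cholinergic V2a wells against 17.4% and 16.1%. The extracellular matrix gene TNC (ENSDARG00000021948) had 115 and 299 CPM against 26.2 and 22 CPM (adjusted p = 0.0174), and the homeobox gene gbx2 (ENSDARG00000002933) had 622 and 548 CPM against 299.6 and 169 CPM (adjusted p = 0.0386, lost in 4 of 14 alternative settings, at adjusted p of up to 0.154). The laminin gene lamb4 (ENSDARG00000039133) was called against all other wells, with 67.7 and 47.3 CPM against 2.70 and 2.81 CPM (adjusted p = 0.0403).

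Genes of membrane excitability were not called against low-cholinergic wells by edgeR. Over all genes, 1311 of 21003 had an unadjusted p below 0.05 in either direction, and DESeq2 called 290 higher and 368 lower of 29742. Of 60 voltage-gated potassium channel genes, 2 were higher and 5 lower at an unadjusted p below 0.05, and DESeq2 called 3 higher and 3 lower. Of 68 sodium, calcium and HCN channel genes, 4 were higher and 7 lower at an unadjusted p below 0.05, and DESeq2 called 1 and 4. Of 27 ionotropic glutamate receptor genes, 4 were higher and 5 lower at an unadjusted p below 0.05, and DESeq2 called 1 and 3.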
